A study of Mus musculus with 4 samples.

Results

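The integrin, laminin and matrix collagen genes and fibronectin were followed in mouse intestinal organoids on 4 Affymetrix arrays. Members were all genes of the platform's gene table whose symbols name an integrin alpha subunit with a number or v, an integrin beta subunit, a laminin chain, a chain of collagens I, III, IV, VI or XVIII, or Fn1. The rule found 46 genes among 18193: 20 integrins, 10 laminin chains, 15 collagen chains and Fn1. For each gene the probe set of highest mean was read, and 20 members lay above the median of all probe sets, an intensity of 16.9. These were 12 integrins, 5 laminin chains, 2 collagen chains and Fn1. The lowest of them were Itga10 and Itgb7, with mean intensities of 20.8 and 21.8, and the highest members left out were Col1a2 and Itga9, with 16.9 and 15.8; Col1a2 was below the limit by its log2 mean of 5.039 against 5.041.

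The organoids are cultures of intestinal epithelium grown in Matrigel, a laminin-rich matrix extract, from which they were recovered before RNA extraction. All cultures received 4-hydroxytamoxifen (4OHT) for 24 hours, given to recombine Apc, the gene of the tumour suppressor that limits beta-catenin, and Tacc3, the gene of a mitotic spindle protein. The groups were Tacc3wt/wt at day 4, Tacc3wt/wt at day 6, Tacc3fl/fl at day 4 and Tacc3fl/fl at day 6, with 1 array each. In the sample descriptions day 4 is normal and day 6 is Apc-deficient, while the design text has Apc recombined before both collections, so the Apc state of each array is not settled; the recombinase line is not given in the sources used here, nor are the strain and age of the animals. With 1 array a group no difference has a replicate check, and a gene was counted where it differed at least 2-fold, 1 on the log2(intensity + 16) scale used for all differences.

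Intestinal epithelial cells stand on a basement membrane, a sheet of laminin trimers and collagen IV networks. Laminins are built of an alpha, a beta and a gamma chain, and cells hold them through integrins, which are pairs of an alpha and a beta subunit. The pair of alpha6 and beta4 binds laminin and anchors the keratin skeleton in hemidesmosomes, whereas pairs with beta1 link laminin or collagen to actin. Fibronectin and the collagens of loose connective tissue are made mainly by mesenchymal cells in the gut wall, and fibronectin is bound by integrins with alphav or alpha5.

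Tacc3 read 184 (wt/wt) and 59.8 (fl/fl) at day 4, and 167 and 49.7 at day 6, lower in the fl/fl cultures on both days; Apc read 27.9 and 53.5 at day 4 and 122 and 150 at day 6. Array medians were between 15.4 and 17.7. For Actb the ratio of 5' to 3' probe sets, a sign of RNA and cRNA integrity, was 0.0610 and 0.0627 on the day 4 arrays and 0.180 and 0.261 on the day 6 arrays. The same ratio for Gapdh was 0.208 and 0.142 at day 4 and 0.411 and 0.524 at day 6. The ratios move with every difference between the days given here, and their part in those differences was not tested. All 11 epithelial markers examined, among them Epcam, Cdh1 and Vil1, lay above the median of all probe sets on average. The lowest value of any of them on any array was 49.1. They also differed between the days, with a median of 0.86 (wt/wt) and 0.64 (fl/fl). Of the 11, 10 were higher at day 6 in both genotypes, beside 44.2% of all genes. An additive limma fit of both factors called 6 higher, beside 22.8% of all genes. Their summed intensity was 18830 and 24666 at day 4 and 28983 and 32514 at day 6, and the part of this in the members' day differences was not tested.

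**Figure D1:**
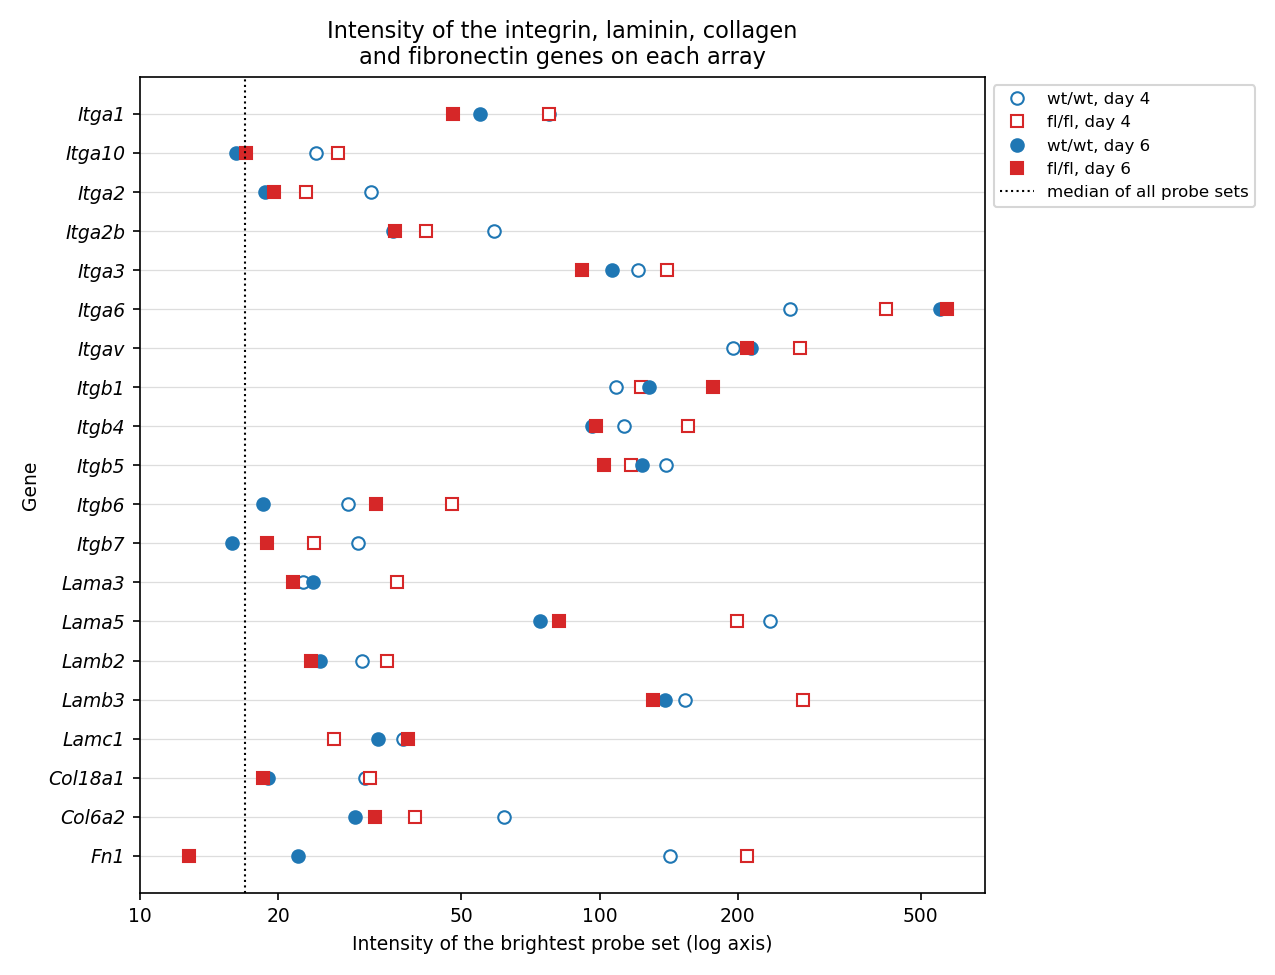
Intensity (log axis) of the 20 members above the median of all probe sets, 1 row per gene, with open symbols for day 4, filled symbols for day 6, circles for wt/wt and squares for fl/fl; the dotted line marks an intensity of 16.9, and each symbol is 1 array. Fn1 and Lama5 have both day 4 symbols to the right of both day 6 symbols by the widest gaps, and Itga6 has both day 6 symbols to the right.

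The comparison of day 6 with day 4 asks which of these genes differed between the days, and it can be read in each genotype from separate arrays. Fn1 and Lama5 fell at day 6 in both genotypes, and no member was 2-fold higher at day 6 in both. Among all 11392 genes above the limit, 1.35% were 2-fold lower in both genotypes and 9.37% were 2-fold higher in both. Of the 20 members, 15 were lower at day 6 in both genotypes, 2 were higher in both (Itga6 and Itgb1) and 3 went opposite ways, against 36.6% of all genes lower and 44.2% higher in both. The median member differed by -0.26 (wt/wt) and -0.37 (fl/fl), beside 0.17 and 0.00 for all genes. These directions follow the arrays' own scale. The hybridization controls, spiked transcripts, had median intensities of 3627 (wt/wt) and 2525 (fl/fl) at day 4 and 1258 and 1021 at day 6. The part of this in the day differences was not tested. Scaling to these controls moved the median of all genes by 1.20 (wt/wt) and 1.09 (fl/fl). It left 1 member lower in both genotypes, beside 0.458% of all genes. Relative to the median of all genes, the median member stayed below, by 0.43 and 0.37 as deposited, by 0.38 and 0.27 after quantile normalization and by 0.61 and 0.51 after scaling to the hybridization controls. The distance was 0.25 and 0.19 with pseudocount 64, and 0.12 and 0.13 with no filter, where all 46 members count.

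The design leaves room for one model, fitted with limma, in which genotype and day add up. It has 1 residual degree of freedom, takes the genotypes as repeats of the day difference and assumes that they do not interact. It called 2 of the 20 members by day at an adjusted p under 0.05, Fn1 and Lama5, both lower at day 6, whereas 30% of all genes were called, 22.8% higher and 7.15% lower, and 44.4% had an unadjusted p under 0.05.

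**Figure D2:**
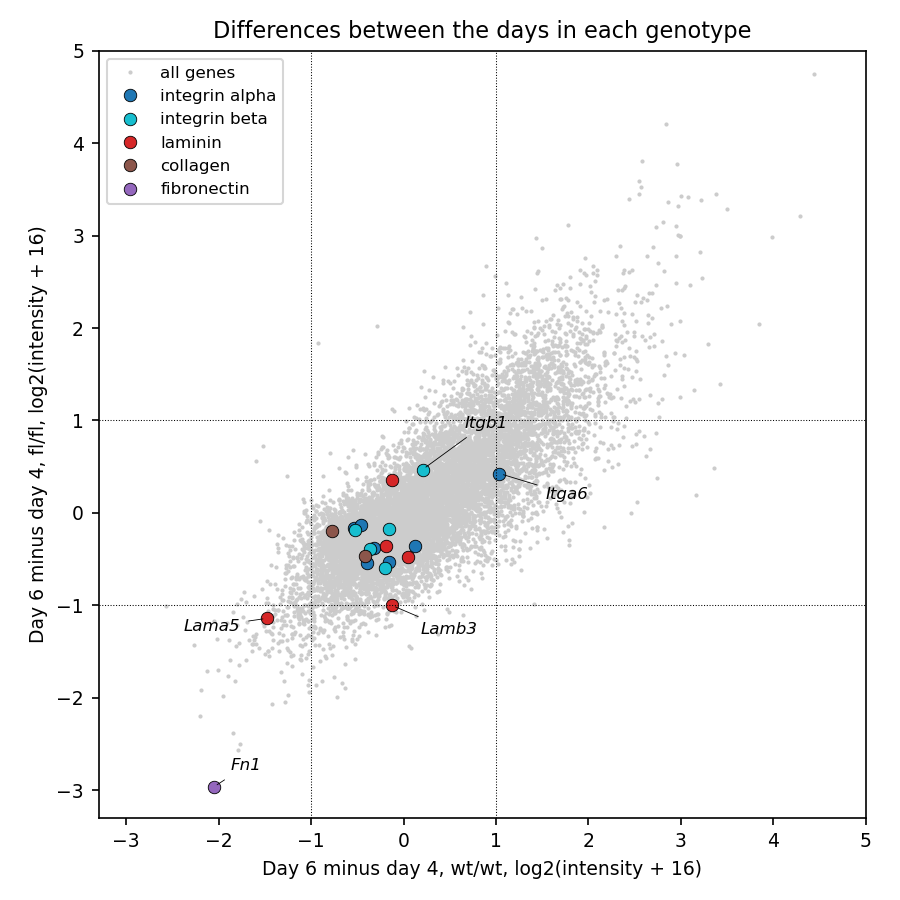
Day 6 minus day 4 in wt/wt (horizontal) and fl/fl cultures (vertical), both on log2(intensity + 16), with all 11392 genes in grey and the 20 members coloured by class; dotted lines mark 2-fold. Of the members, 17 lie below the median gene in both genotypes, beside 41.2% of all genes. Fn1 lies at -2.05 and -2.97, and Itga6 is the member farthest to the right at 1.04. Scaling to the hybridization controls moves the median of all genes by 1.20 and 1.09 and leaves 1 member below 0 in both.

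Fibronectin, the adhesive glycoprotein encoded by Fn1, had the largest difference of the group. Its intensity was 142 (wt/wt) and 209 (fl/fl) at day 4, and 22.1 and 12.8 at day 6. Both day 4 arrays were thus high and both day 6 arrays lay near the limit of 16.9. The day differences were -2.05 (wt/wt) and -2.97 (fl/fl) (adjusted p = 0.00413, additive limma fit). In the mean of both genotypes Fn1 ranked lowest of all 11392 genes, and it ranked 7 from the lowest in wt/wt and 1 in fl/fl cultures. The fl/fl reading at day 6 lay below the limit, so the size of that difference and these ranks are not exact. Its rank by this mean was 5 with pseudocount 64, 2 with pseudocount 1 and 7 with the mean of probe sets, and 1 in the other alternatives that kept it, the 3 scalings included; the stricter filter removed it. A dimmer Fn1 probe set, itself below the limit, read 16.6 and 18.4 at day 4 and 4.93 and 5.17 at day 6, also lower at day 6 in both genotypes. Scaled to the hybridization controls, Fn1 differed by -0.88 and -2.11.

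Laminin alpha5, encoded by Lama5 and a main chain of the epithelial basement membrane in adult gut, was the second member to fall. Its intensity was 235 (wt/wt) and 199 (fl/fl) at day 4, and 74.0 and 81.5 at day 6, with no overlap of the days. The day differences were -1.48 and -1.14 (adjusted p = 0.00708, additive limma fit), which placed Lama5 at rank 86 from the lowest of 11392 genes. Its second probe set above the limit read 84.5 and 115 at day 4 and 54.5 and 57.6 at day 6, a difference of -0.51 and -0.83 that falls short of 2-fold. With the mean of its probe sets Lama5 differed by -0.67 and -0.75, and with pseudocount 64 the fl/fl difference was -0.85. Scaled to the hybridization controls it differed by -0.13 and 0.02, while it stayed 1.49 and 1.07 below the median of all genes.

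By their brightest probe sets, the chains that pair with laminin alpha5 did not follow it by size. Lamc1, the common gamma1 chain, read 37.3 (wt/wt) and 26.5 (fl/fl) at day 4 and 32.9 and 38.3 at day 6. The days thus overlapped, with differences of -0.12 and 0.35. The other Lamc1 probe set, below the limit, read 15.9 and 24.6 at day 4 and 11.2 and 10.5 at day 6. It was lower at day 6 in both genotypes (-0.23 and -0.62). With the mean of its probe sets Lamc1 differed by -0.18 and -0.13. Lamb2, the beta2 chain, read 30.3 and 34.6 at day 4 and 24.7 and 23.5 at day 6, with differences of -0.19 and -0.36. Lamb1, the beta1 chain, lay below the limit, with readings between 4.45 and 13.5.

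Lama3 and Lamb3 encode the alpha3 and beta3 chains of the hemidesmosomal laminin. Lamb3 read 153 (wt/wt) and 278 (fl/fl) at day 4, and 139 and 131 at day 6. The fl/fl array at day 4 stood apart, the other 3 lying between 131 and 153. The day difference was -0.13 in wt/wt cultures and lay exactly at 2-fold lower in fl/fl cultures, and 2.97% and 2.9% of all genes were 2-fold lower in these comparisons. The fl/fl difference read -0.95 after centring each array, -0.81 with pseudocount 64 and 0.21 after scaling to the hybridization controls. The additive fit did not call Lamb3 by day (adjusted p = 0.140). Lama3 had a similar order at a dimmer level, with 22.6 and 36.2 at day 4 and 23.9 and 21.5 at day 6.

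Of the 20 members, 15 had promoters in the RefSeq table of GRCm38.p6, with 20 start sites. Windows of 250 bases before each start were searched on both strands for the letters TGANTCA (AP-1), GGAATG (TEAD) and CTTTGAT (TCF/LEF). AP-1 and TCF/LEF letters occurred in 0 of the 20 windows, beside 6.75% and 3.21% of all 32851 promoters, so no match overlapped one of another motif. TEAD letters occurred in 5 windows, those of Col18a1, Col6a2, Itga10, Itgb1 and a start of Lamb3, beside 12.6% of all promoters. The window of Lama5, the laminin gene that fell, and that of Itgb1, the shared beta subunit gene with a TEAD match, are shown 5′ to 3′ on the gene's strand. Lama5 lies on the minus strand at chr2:180225860-180226109 and holds none of the 3 motifs, and Itgb1 lies on the plus strand at chr8:128685404-128685653 with its match, in capitals, beginning 7 bases before the start. G and C made up 72.4% of the first and 68.0% of the second.
Lama5: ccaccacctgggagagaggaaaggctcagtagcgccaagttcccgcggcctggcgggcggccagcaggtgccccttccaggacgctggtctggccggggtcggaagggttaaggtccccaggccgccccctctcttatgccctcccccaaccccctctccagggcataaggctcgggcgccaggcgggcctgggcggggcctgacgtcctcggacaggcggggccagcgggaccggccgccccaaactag
Itgb1: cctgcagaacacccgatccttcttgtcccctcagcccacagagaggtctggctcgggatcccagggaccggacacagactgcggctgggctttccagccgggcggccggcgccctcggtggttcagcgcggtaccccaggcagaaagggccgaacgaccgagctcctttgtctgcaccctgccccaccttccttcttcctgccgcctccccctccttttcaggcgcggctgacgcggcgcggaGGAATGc
A match is a description of letters, and no factor's binding was measured.

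Among integrin alpha subunits, 5 of the 7 above the limit were lower at day 6 in both genotypes, beside 36.6% of all genes. Itga6 was higher in both. These directions are those of the deposited scale. Itga6, the laminin-binding alpha6 subunit of crypt cells and hemidesmosomes, read 260 (wt/wt) and 421 (fl/fl) at day 4, and 551 and 571 at day 6. The wt/wt array at day 4 was the lowest and both day 6 arrays were the highest. The differences of 1.04 (wt/wt) and 0.43 (fl/fl) compare with 18.3% and 12.2% of all genes 2-fold higher in the same comparisons. In wt/wt organoids Itga6 was short of 2-fold after quantile normalization (0.58) and with pseudocount 64 (0.92), and the additive fit gave an adjusted p of 0.0528.

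Itga6 depended on the probe set. Its other probe set read 131 and 215 at day 4 and 642 and 590 at day 6, which is 2.17 and 1.39 higher at day 6 and 2-fold in both genotypes. Both probe sets put day 6 above day 4 in each genotype, and they differ in size.

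Itgb1, the beta subunit shared by most laminin and collagen receptors, showed the same dependence. Its brightest probe set read 109 (wt/wt) and 123 (fl/fl) at day 4 and 128 and 177 at day 6, differences of 0.21 and 0.47. A second probe set read 54.8 and 63.9 at day 4 and 156 and 179 at day 6, differences of 1.28 and 1.29. The third above the limit differed by 0.07 and 0.13. The direction of the brightest probe set turned in wt/wt organoids after quantile normalization (-0.27), so the Itgb1 difference rests on which probe set and scale are read.

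**Figure D3:**
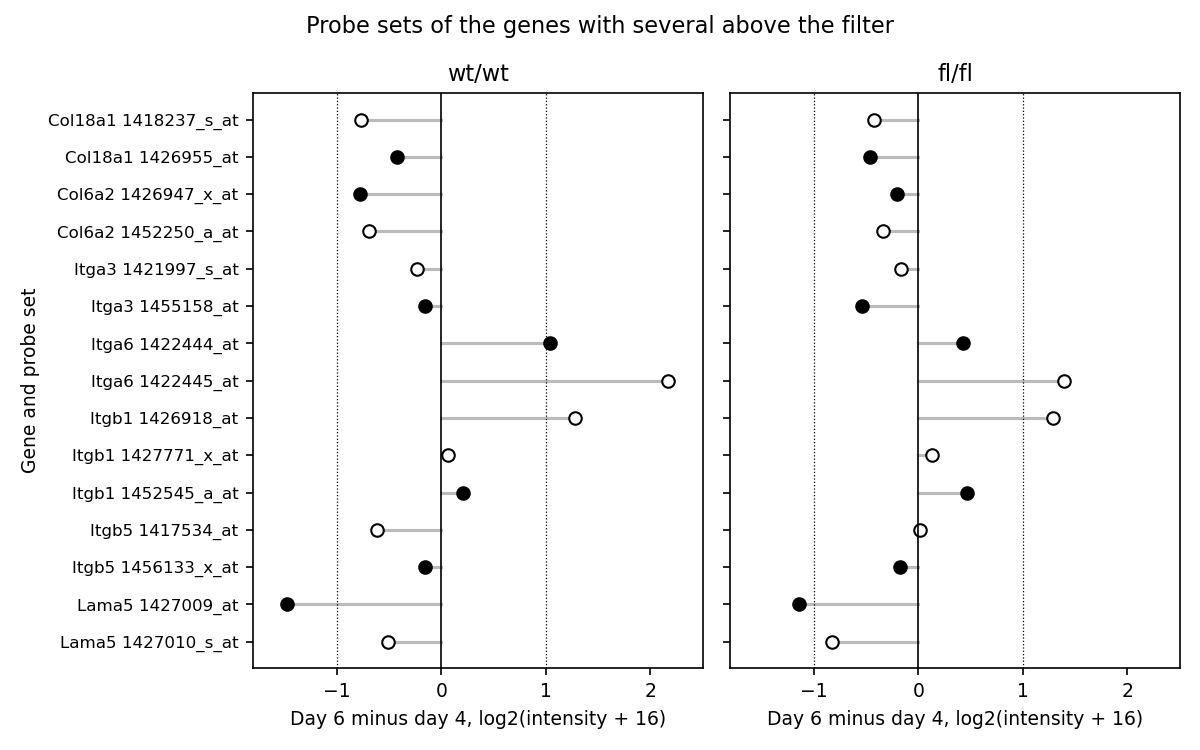
Day 6 minus day 4 on log2(intensity + 16) in wt/wt (left) and fl/fl cultures (right) for the 15 probe sets of the 7 members with several above the limit; filled points are the probe sets used in the text and dotted lines mark 2-fold. In wt/wt cultures the probe sets of Itga6, Itgb1 and Lama5 differ most in size, and the probe sets of a gene lie on the same side of 0 except those of Itgb5 in fl/fl cultures; the sides are those of the deposited scale, and scaling to the hybridization controls moves the median of all genes by 1.20 and 1.09.

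The remaining integrins differed less than 2-fold in every comparison. Itgb4, the beta4 subunit that pairs only with alpha6, read 113 (wt/wt) and 156 (fl/fl) at day 4 and 96.4 and 98.2 at day 6. It was lower at day 6 by 0.20 and 0.59 on the log2 scale, the opposite direction to its partner Itga6, and higher at day 6 in wt/wt organoids by 1.09 after scaling to the hybridization controls. Itga3, a laminin-binding alpha subunit, differed by -0.16 and -0.54. The collagen-binding subunits Itga1 and Itga2 differed by -0.40 and -0.55 and by -0.46 and -0.13; the 2 day 4 arrays gave Itga1 the same deposited value, 77.6, as they did for 131 probe sets in all.

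Itgav, which pairs with several beta subunits to bind fibronectin and vitronectin, read 195 (wt/wt) and 273 (fl/fl) at day 4 and 213 and 210 at day 6, opposite directions in the genotypes (0.12 and -0.36). Its epithelial partners were Itgb5, at -0.16 and -0.17, and Itgb6, which is known to activate latent TGF-beta, at -0.36 and -0.39. The Itgb5 direction depended on the probe set. The second above the limit differed by -0.62 and 0.02, and those below it by 0.19 and 0.45 and by 0.09 and 0.34. Itgb7, Itga2b and Itga10 are known from lymphocytes, platelets and cartilage, and differed by -0.54 to -0.32 in wt/wt and -0.38 to -0.16 in fl/fl cultures at mean intensities of 20.8 to 42.4. Itga5, the fibronectin receptor subunit, lay below the limit, with readings between 7.92 and 17.4.

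Collagens were mostly at the level of the dim probe sets. Of 15 collagen chains 2 passed, Col18a1, a basement membrane collagen, and Col6a2, a chain of microfibrils. Col6a2 read 61.9 (wt/wt) and 39.7 (fl/fl) at day 4 and 29.4 and 32.5 at day 6, differences of -0.78 and -0.20. The probe set read here carries the x_at suffix, given where probes may bind several transcripts; the other differed by -0.70 and -0.34. Col6a1, its neighbour on chromosome 10 and its partner in the fibril, stayed between 6.38 and 11.4. Col18a1 read 30.9 and 31.7 at day 4 and 19.0 and 18.5 at day 6, with no overlap of the days and differences of -0.42 and -0.47, and its other probe set differed by -0.77 and -0.43.

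The 26 members below the limit comprised 13 collagens, 8 integrins and 5 laminin chains, and none exceeded 25.7 on any array or differed by over 0.59 in any comparison. Among them were Col1a1, Col1a2 and Col3a1, the fibrillar collagens of fibroblasts, and Col4a1 and Col4a2, the chains of common collagen IV. Of these 26, 18 were lower at day 6 in both genotypes, a share of 69.2% beside 64.1% of all 22550 probe sets below the limit. The share of dim members that were lower is near that of dim probe sets in general.

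Most markers of other cells were dim, Lyz2 and Cd14 of the immune list being the brightest. Of 13 mesenchymal markers 4 lay above the limit (Vim, Acta2, Des and Tagln), and none was at 0, the lowest reading being 4.75. Their summed intensity was 262 (wt/wt) and 207 (fl/fl) at day 4 and 142 and 157 at day 6, and 10 of the 13 were brighter at day 4 in both genotypes. Of these 13, 9 lay below the limit, where 64.1% of all probe sets were lower at day 6 in both genotypes, and the fit called 0 of the 4 others by day. Between the genotypes the sum was lower in fl/fl cultures at day 4 and higher at day 6, and the markers differed in direction. Of the 4 above the limit, 1 was higher in fl/fl cultures on both days and 2 were lower on both. The 1 was Vim, with 27.4 (wt/wt) and 36.9 (fl/fl) at day 4 and 13.2 and 24.3 at day 6. The 8 endothelial markers summed to 128 and 112 at day 4 and 88.2 and 94.8 at day 6, with 1 above the limit and 6 brighter at day 4 in both genotypes. The immune list summed to between 1319 and 3035 with 4 of 10 above the limit and 7 brighter at day 4 in both genotypes. Most of this sum came from Lyz2 (1136 to 2857), so it is not a measure of immune cells. Which cells gave the Lyz2 signal was not tested. Ptprc, Itgam and Tyrobp of the same list lay below the limit, with readings between 4.53 and 8.69. The megakaryocyte and platelet list summed to between 34.3 and 50.6, with 1 of 3 above the limit and 2 brighter at day 4 in both. Most endothelial, immune and platelet markers lay below the limit. Their counts brighter at day 4 are near the 64.1% of all probe sets below it. The part of the cells of all these lists in the lower Fn1, Col18a1 and Col6a2 values at day 6 was not tested. In a bulk culture fewer cells of a type and less RNA per cell cannot be told apart.

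Setting fl/fl against wt/wt on each day asks whether these genes differed where Tacc3 was floxed. None of the 20 members differed 2-fold between the genotypes at either day. In all genes 1.38% were higher and 0.105% lower at day 4, and 0.211% higher and 0.571% lower at day 6. By genotype the additive limma fit called 0 members and 0 genes after adjustment, with 5.35% of genes at an unadjusted p under 0.05. Of the members 5 were above 0 on both days and 1, Itgb5, was below 0 on both, beside 38% and 14.5% of all genes. A second Itgb5 probe set above the limit differed by -0.58 at day 4 and 0.06 at day 6. The median member differed by 0.11 at day 4 and 0.02 at day 6, beside 0.15 and 0.05 for all genes.

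**Figure D4:**
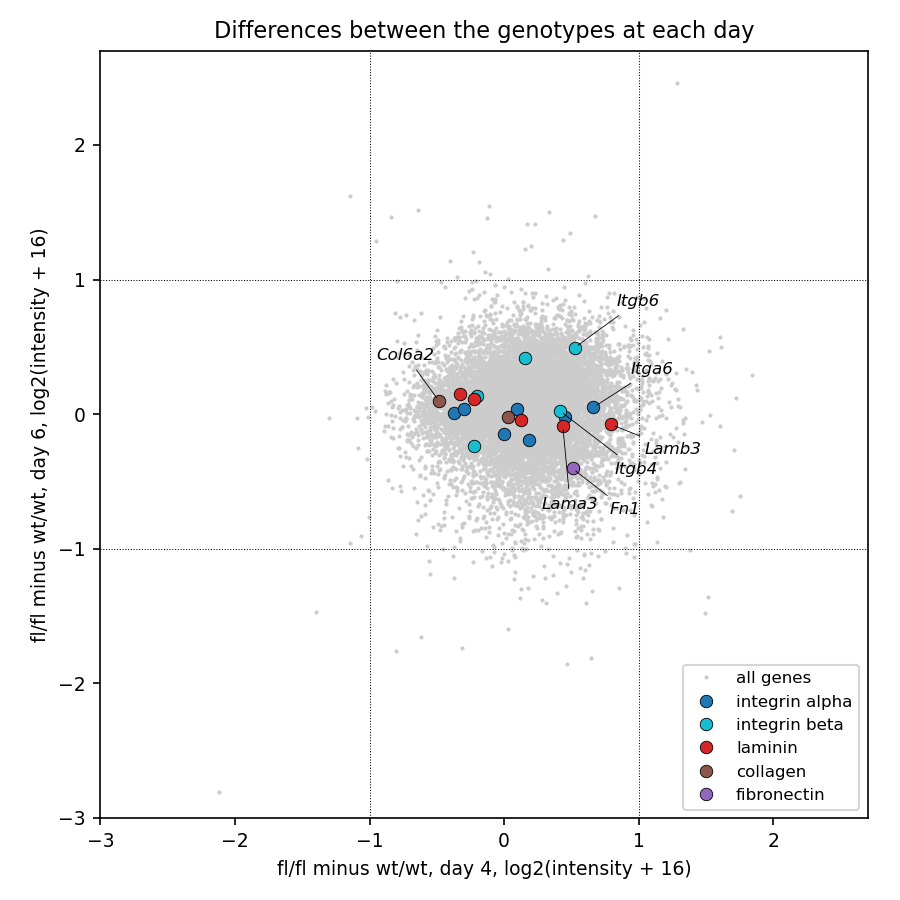
Fl/fl minus wt/wt at day 4 (horizontal) and day 6 (vertical), both on log2(intensity + 16), with all 11392 genes in grey and the 20 members coloured by class; dotted lines mark 2-fold. As deposited, all members lie within 2-fold (Lamb3 and Itga6 pass it at day 4 after scaling to the hybridization controls), Lamb3 is farthest to the right at 0.79 and -0.08, and Itgb6 is the member highest at day 6, with 0.49.

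Lamb3 had the largest genotype difference, 0.79 at day 4, and -0.08 at day 6. Itga6 differed by 0.66 and 0.05, Itgav by 0.45 and -0.03, Lama3 by 0.44 and -0.09 and Itgb4 by 0.42 and 0.02. Higher values in fl/fl cultures at day 4 thus met values near 0 at day 6 in Itga6, Itgb4, Lama3 and Lamb3, genes of the hemidesmosomal integrin and laminin. The pattern was not particular to them, since Itgav had it too. The epithelial markers had medians of 0.43 at day 4 and 0.17 at day 6. This grouping was made with the values known. The other Lama3 probe set, below the limit, differed by -0.18 at day 4. Among all genes 66.7% were above 0 at day 4, and scaling to the hybridization controls took Lamb3 to 1.22 and Itga6 to 1.12 at that day. Itgb6 was higher in fl/fl cultures at both days, by 0.52 and 0.49, from 28.3 against 47.7 at day 4 and 18.5 against 32.6 at day 6. Fn1 was higher by 0.51 at day 4 and lower by 0.40 at day 6 (a difference of -0.40). The lowest of the 7 members below 0 in fl/fl cultures at day 4 were Col6a2 (-0.48), Itga2b (-0.37), Lamc1 (-0.33) and Itga2 (-0.30). These differed by 0.10, 0.01, 0.15 and 0.04 at day 6. The others were Itgb5 (-0.23), Lama5 (-0.22) and Itgb7 (-0.20). For Lama5 and Lamc1 the direction at day 4 depended on the probe set. The second Lama5 probe set above the limit differed by 0.38, and the mean of its probe sets by 0.09. The other Lamc1 probe set, below the limit, differed by 0.35.

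**Figure D5:**
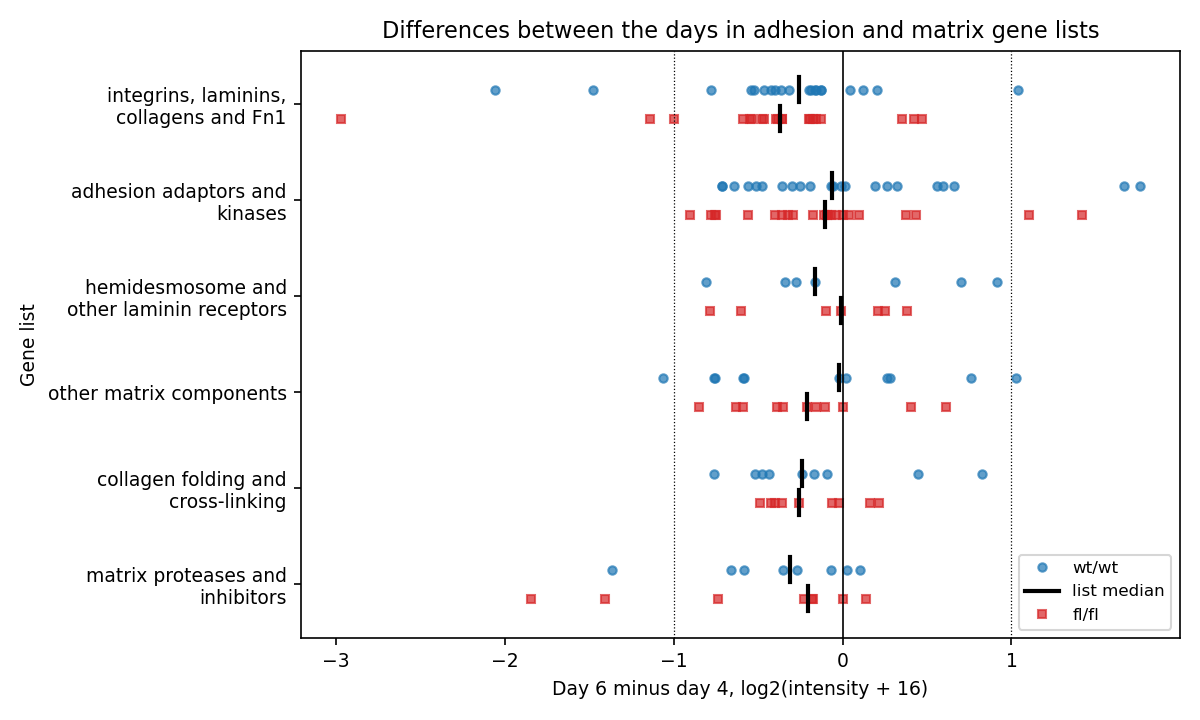
Day 6 minus day 4 on log2(intensity + 16) for the 20 members and 5 further lists of adhesion and matrix genes above the limit, with blue circles for wt/wt, red squares for fl/fl, a black bar at each list's median and dotted lines at 2-fold. The medians lie between -0.37 and -0.01, and the highest values are those of Vcl and Tns3; scaling to the hybridization controls moves the median of all genes by 1.20 and 1.09.

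Among the 5 further lists of adhesion and matrix genes, the largest mean day differences were those of Tns3 and Vcl, adaptors on the inner side of integrins. Of 27 adhesion adaptors and kinases, 25 had a probe set of 1 symbol and 22 passed the limit. Of the 22, 2 rose at day 6 by the additive limma fit and 2 fell, beside 22.8% and 7.15% of all genes. Vcl, encoding vinculin, which ties adhesions to actin, read 128 (wt/wt) and 225 (fl/fl) at day 4 and 470 and 503 at day 6, a difference of 1.76 and 1.11 (adjusted p = 0.00793). Tns3, a tensin that binds beta integrin tails, read 180 and 168 at day 4 and 607 and 476 at day 6, or 1.67 and 1.42 (adjusted p = 0.00499). Tns4 (-0.64 and -0.78) and the kinase Src (-0.51 and -0.90) fell. The list's median was -0.06 and -0.10.

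Of the hemidesmosome and other laminin receptor list 7 of 9 passed and the fit called 0 by day, with medians of -0.16 and -0.01. The tetraspanin Cd151, a partner of laminin-binding integrins, differed by 0.91 and 0.21 between the days. The plakins Dst and Plec, which tie hemidesmosomes to keratin, differed by -0.34 and -0.78 and by -0.16 and -0.60, and dystroglycan Dag1 by 0.31 and 0.38. Between the genotypes Cd151, Dst and Plec were, like Itga6, Itgb4, Lama3 and Lamb3, higher in fl/fl cultures at day 4 and near 0 at day 6; these 3 were picked after their values were seen. The other 4 genes of the list differed otherwise, Dag1 by 0.50 and 0.57, Sdc1 by 0.43 and -0.28, Sdc4 by -0.20 and 0.86 and Rpsa by -0.13 and 0.05. Itga6, Itgb4, Lama3, Lamb3, Cd151, Dst and Plec, 7 genes, differed by 0.28 to 0.80 between genotypes at day 4 and by -0.15 to 0.10 at day 6, and 35.5% of all genes were at least 0.28 higher at day 4. The epithelial markers had medians of 0.43 and 0.17 in the same comparisons. The pattern depended on the probe sets. Without x_at and s_at probe sets Plec differed by -0.14 at day 4, and Cd151 by 0.34 at day 4 and 0.38 at day 6. With the mean of probe sets Plec and Dst differed by 0.06 and 0.14 at day 4.

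Of 25 other matrix components, 23 had a probe set of 1 symbol and 11 passed. Of the 11, 1 was called higher and 1 lower by day, beside 22.8% and 7.15% of all genes. Tinag, a basement membrane protein, rose by 1.03 and 0.62, and Npnt, nephronectin, a ligand of integrin alpha8, was called lower (-0.75 and -0.59), though its day 6 readings of 10.5 and 13.4 lay below the limit. Sparc, a collagen-binding matricellular protein, differed by -1.06 and -0.39 and Fbln1, a fibulin, by 0.76 and 0.41. Of 19 genes of collagen folding and cross-linking, 17 had a probe set of 1 symbol, 9 passed and the fit called 0 by day. Tgm2, transglutaminase, differed by -0.43 and -0.49 and Bmp1, a procollagen protease, by -0.52 and -0.40. Loxl4, a lysyl oxidase, differed by -0.48 and -0.36 and Serpinh1, the collagen chaperone, by -0.76 and -0.06.

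Of 14 matrix proteases and inhibitors, 12 had a probe set of 1 symbol and 8 passed. Of the 8, 0 rose and 3 fell by day, beside 22.8% and 7.15% of all genes. Timp2, an inhibitor of matrix metalloproteases, read 168 (wt/wt) and 191 (fl/fl) at day 4 and 55.6 and 62.1 at day 6, differences of -1.36 and -1.40 (adjusted p = 0.00560, additive limma fit). Mmp14, the membrane protease that acts with Timp2, fell as well (-0.58 and -0.74), and so did the Paneth cell protease Mmp7 (-0.66 and -1.85). Mmp9 differed by -0.35 and 0.00.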

How the data were processed

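Total RNA was labelled from 100 ng with a 3' in vitro transcription kit, per the labels' protocols. The authors deposited 1 linear intensity per probe set and array, 45101 in all; which software summarised or normalized them is not given in the sources used here. Groups came from the sample titles. The members, gene lists, motifs and settings were chosen with earlier results of these data known. Values were analysed as log2(intensity + 16), which understates differences of dim genes, with no further scaling. The platform's gene table gives 1 symbol for 34958 probe sets; 9211 are not listed. Genes were read by the probe set with the highest mean and kept at or above the all-probe-set median (log2 5.04), giving 11392 genes. Differences at least 2-fold were counted. An additive fit of genotype and day used limma 3.58.1 in R 4.3.3 (lmFit, eBayes, Benjamini-Hochberg over 11392 genes). The code was tested on simulated data. The named genes were set by rule: all members; those 2-fold in any comparison and their partners in full; and of each further list the 4 with the largest absolute mean day difference. Alternatives were 2 pseudocounts, 3 scalings, 2 probe set rules and 2 filters. Signal near the median of all probe sets and 1 array a group limit the precision.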

Additional observations from a re-analysis of the deposited data

Results flagged for a closer look

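Fn1 differed between the genotypes in opposite directions at the days, by 0.51 at day 4 and -0.40 at day 6 (fl/fl minus wt/wt). Whether the genotype difference itself differed between the days was not tested, since each group has 1 array. At day 6 both readings, 22.1 and 12.8, lay near the median of all probe sets.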

How the results depend on the processing

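Of the counts, that of members 2-fold lower at day 6 in both genotypes, 2 as deposited, was 1 with pseudocount 64 (Fn1), 1 with the mean of probe sets (Fn1), 1 with the stricter filter (Lama5), which removed Fn1 and kept 8 members, and 0 with scaling to the hybridization controls. Over all genes these counts were 58 of 11390, 22 of 10511, 135 of 6470 and 1 of 11351, beside 154 of 11392 as deposited. Scaling to the hybridization controls also gave 2 members 2-fold higher at day 6 in both genotypes (Itga6 and Itgb1), beside 5785 of 11351 genes. It gave 2 higher in fl/fl organoids at day 4 (Itga6 and Lamb3), beside 986 genes. With it the additive fit called 15 of 20 members by day, beside 9829 of 11351 genes. This scaling shifts whole arrays by its construction. The additive fit called 7 of 21 members by day after quantile normalization, beside 4275 of 11407 genes. It called 3 of 20 after centring, beside 3826 of 11392 genes, and 4 of 19 with the mean of probe sets, beside 2826 of 10511. The cause was not tested. Scaling to the hybridization controls turned the day difference of Lama5 in fl/fl organoids to 0.017, of Lamb3 to 1.22 in wt/wt and 0.21 in fl/fl, and of Itgb4 in wt/wt to 1.09. Smaller differences that also turned with it were Itgb4 in fl/fl (0.57), Itgb6 (0.50 and 0.56), Itgav in fl/fl (0.87), Lama3 in fl/fl (0.37) and Lamc1 in wt/wt (0.87). The counts of genotype differences stayed at 0 under all other alternatives. Quantile normalization moved the median of all genes by -0.30 in wt/wt and -0.12 in fl/fl between the days and by -0.14 between genotypes at day 4. Over all genes it changed the split of 2082 higher and 338 lower at day 6 in wt/wt to 1184 and 1107, that of 1394 and 330 in fl/fl to 928 and 674, and that of 157 and 12 between genotypes at day 4 to 117 and 40; with the hybridization controls these were 7447 and 2, 6156 and 6, and 986 and 1, and at day 6 the 24 and 65 between genotypes became 174 and 25. No paired analysis was possible because each group has 1 array and the labels give no replicate numbers.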

Other observations

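Itgb6, chosen after its values were seen, was at least 0.49 higher in fl/fl organoids at both days, as were 154 of 11392 genes (1.35%). The difference held its sign in every alternative that kept the gene, from 0.22 to 0.74 at day 4 and 0.23 to 0.80 at day 6. Its second probe set lay below the limit and differed by -0.07 and 0.01.

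Itga1 and Itga2 are neighbours on chromosome 13 and both passed the limit, whereas Col6a2 passed and its neighbour Col6a1 on chromosome 10 did not. The neighbours Col4a1 and Col4a2 on chromosome 8 were both below it.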
